A study of Mus musculus with 55 samples.

Results

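Tridocosahexaenoin, the triglyceride of docosahexaenoic acid (DHA) and here called DHA oil, was compared with triolein, the triglyceride of oleic acid, in hearts of mice that lack the nuclear receptor PPARα. The comparison took 5 DHA oil hearts and 5 triolein hearts, 10 of the 55 arrays of the series, by the genotype, oil and replicate number in the sample titles. It covered 8237 of the 18193 genes that had a probe set of their own. These were the genes whose signal exceeded 20 on the linear scale, a log2 value of 4.32, in at least 3 of the 55 arrays. Each gene was read from 1 probe set, the one with the highest mean signal.

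The mice were male and of Sv129 background. The PPARα-null mice were 129S4/SvJae and carried the genotype label PPARalpha -/-, with no tissue-specific driver named, and the wild-type mice were 129S1/SvImJ, so genotype and substrain cannot be told apart. One label gives an age of 9 to 12 weeks and the growth protocol one of 2 to 6 months. All mice ate for 2 weeks a purified diet in which olive oil, itself rich in oleic acid, took the place of corn oil. After 4 h without food each mouse was given 400 µL of synthetic triglyceride by gavage, and its heart was frozen 6 h later, so the oils were matched in volume and time. Oleic acid has 18 carbons and 1 double bond, and docosahexaenoic acid has 22 carbons and 6 double bonds. Values from 3 other groups stand beside the comparison, namely 5 PPARα-null control hearts, whose gavage held 0.5% carboxymethyl cellulose per the treatment protocol (another label reads none), 5 wild-type hearts given DHA oil and 4 given triolein. One Affymetrix mouse genome array was run per heart, and the values are log2 signals of mRNA in whole heart tissue. In such tissue fewer cells of a type and less RNA per cell cannot be told apart.

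PPARα is a fatty acid receptor of the nucleus that switches on genes of fatty acid uptake, storage, oxidation and mitochondrial uncoupling, and it is abundant in heart muscle. Polyunsaturated and monounsaturated fatty acids both bind it. Other sensors of fatty acids exist beside it. PPARδ binds fatty acids too, long polyunsaturated chains repress the sterol regulatory factor SREBP-1c, and oxidised lipids activate NRF2, a factor of antioxidant defence. Interferon-stimulated genes are a further set that many tissues express at a low level. Many of them carry a response element built from repeats of the letters GAAA.

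The 10 arrays were alike in scale, which the normalization by quantiles before deposit largely fixes in advance. Array medians ran from 2.56 to 2.59, the share of probe sets with a linear signal over 20 from 29.4% to 30.1%, and pairs of the 10 arrays correlated at 0.991 to 0.996. The medians and shares are therefore no check of the hearts. Ppara itself read 6.93 to 7.49 in the null oil hearts and 7.93 to 8.59 in the wild-type oil hearts. Where its probe set lies against the deletion was not analysed here, so the remaining signal checks nothing about the intact transcript. The difference in Actb signal between its 3′ and 5′ probe sets, a sign of RNA quality, was 0.802 ± 0.0461 (SD, n = 5) with DHA oil and 0.776 ± 0.0516 (SD, n = 5) with triolein. That difference had a two-sided exact permutation p of 0.421, where 0.00794 is the smallest that 5 against 5 hearts allow. The DHA oil hearts were the most variable of the 12 groups, with a median SD over genes of 0.171 log2 units, against 0.136 in the triolein hearts. Limma's estimated array weights, which average about 1, were 0.478 for DHA oil replicate 1 and 0.472 for replicate 5, and 0.790 or more for each triolein heart. The labels name separate hearts and give no batch.

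The whole comparison of the oils held a single called gene. Cmpk2, a mitochondrial nucleotide kinase whose gene interferon induces, was lower with DHA oil. It was 1 of 8237 genes (0.0121%) with an adjusted p under 0.05 (limma, Benjamini-Hochberg over all tested genes), the threshold at which a gene is called here. At an unadjusted p under 0.05 there were 563 genes, 289 higher (3.51%) and 274 lower (3.33%) with DHA oil. The same contrast in wild-type hearts called 44 genes (0.534%), 25 higher and 19 lower. The PPARα-null difference exceeded 1.5-fold for 45 genes, 20 higher and 25 lower. In 37 genes every DHA oil heart lay above every triolein heart (0.449%), and in 36 every one lay below (0.437%). The median difference over all genes was 0.0025 log2 units. For 7626 genes (92.6%) the 95% interval of the difference lay within 1.5-fold either way, and for 99.1% it lay within 2-fold, so for most genes the arrays limit the difference to a narrow range. The plot of all tested genes shows this spread, with most genes close to 0.

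**Figure D1:**
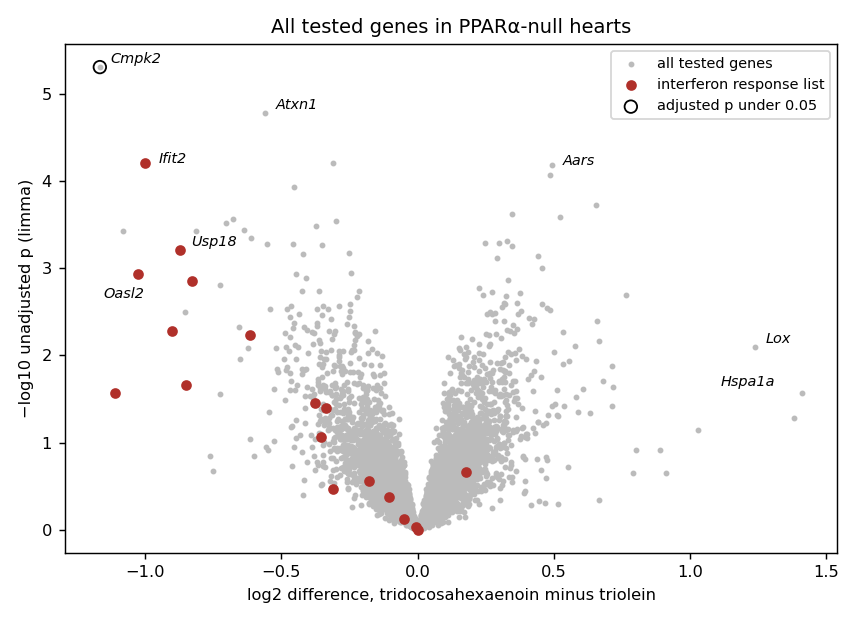
Each point is 1 of 8237 tested genes in PPARα-null hearts, by its log2 difference, DHA oil minus triolein (x axis), and the −log10 of its unadjusted limma p (y axis). Red points are the 18 tested genes of the interferon response list, 17 of which lie below 0, and the ring marks Cmpk2, the single gene with an adjusted p under 0.05.

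Cmpk2 read 4.55, 3.74, 4.11, 3.55 and 3.15 in DHA oil replicates 1 to 5. It read 4.70, 5.08, 4.82, 5.10 and 5.24 in triolein replicates 1 to 5. The highest DHA oil heart thus lay under the lowest triolein heart. Cmpk2 fell by 1.17 ± 0.23 log2 units (SE, n = 5 and 5; 95% interval -1.62 to -0.71; limma adjusted p = 0.0406), 2.25-fold. The size is not exact, because the DHA oil mean of 3.82 lay under the brightness minimum. The other Cmpk2 probe set, too dim to test, differed by -0.228, so the call rests on 1 probe set. In PPARα-null control hearts Cmpk2 read 3.85, 3.81, 4.20, 3.45 and 3.69, which is the range of the DHA oil hearts. Triolein against these controls gave 1.19 ± 0.23 (limma adjusted p = 0.00751) and DHA oil against the same controls 0.02 ± 0.23 (limma adjusted p = 0.971). The control mean of Cmpk2 also lay under the brightness minimum, so these sizes are not exact either. In wild-type hearts both oil means of Cmpk2 were under the minimum, and the oils differed by -0.22 ± 0.24 (limma adjusted p = 0.832). The difference between the genotypes itself was -0.94 ± 0.33 (limma adjusted p = 0.614), so the fall was not shown to differ from wild type. Cmpk2 was called in 7 of the 18 alternative settings that tested it, with values from -1.35 to -1.0 and adjusted p-values from 0.00329 to 0.933. Leaving out DHA oil replicate 2 or 5 or triolein replicate 2, 3, 4 or 5 ended the call, with adjusted p-values of 0.0599 to 0.649, the highest without DHA oil replicate 5.

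Genes of the interferon response list, of which 18 of 28 were bright enough to test, lay below 0 together. With DHA oil 17 of the 18 were below 0, against 49.1% of all tested genes, and 10 were lower at an unadjusted p under 0.05, against 3.33%. None of the 18 was called (limma). The median difference of the list was -0.37, beside 0.0025 over all genes. Of the 18, 14 had a promoter in the RefSeq promoter table (GRCm38.p6). In 9 of these 14 the 250 bases before the start held the letters GAAANNGAAA on either strand, where overlapping matches were allowed. Of all 32851 promoters 2.98% did, and of the 6760 tested genes with a promoter 2.94% did. The 3 stretches here show that element before 3 antiviral genes of the list whose signal lay lower with DHA oil at an unadjusted p under 0.05. They run 5′ to 3′ along the strand of the gene, with capitals on each match, which here reads TTTCNNTTTC because it lies on the other strand. The Ifit1 stretch is chr19:34640760-34640838 (plus strand), the Ifit3 stretch chr19:34583348-34583441 (plus strand) and the Rsad2 stretch chr12:26456538-26456597 (minus strand).
Ifit1: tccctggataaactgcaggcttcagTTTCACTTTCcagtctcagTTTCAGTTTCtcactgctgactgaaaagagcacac
Ifit3: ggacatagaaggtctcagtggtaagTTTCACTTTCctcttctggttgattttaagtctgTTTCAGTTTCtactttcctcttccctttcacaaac
Rsad2: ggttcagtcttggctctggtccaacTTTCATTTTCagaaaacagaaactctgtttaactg
The nearest match ends 75 bases before the start of Ifit1, 112 before that of Ifit3 and 110 before that of Rsad2. Gbp3, lower at that threshold too, also held a match. So did Bst2, Gbp2, Igtp, Irgm1 and Stat2, which were not lower at that threshold. Ifit2, Irf1, Irf9, Oasl2 and Psmb8 of the list, and Cmpk2 outside it, held no match of these letters in their windows. Of these list members Ifit2, Irf9, Oasl2 and Psmb8 were nonetheless lower at that threshold. A match is a description of the letters and not a measured binding site.

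Among the antiviral effectors of the list, Ifit2, whose protein binds viral RNA, read 6.58, 6.35, 6.67, 6.69 and 5.58 with DHA oil and 7.45, 7.10, 6.93, 7.46 and 7.95 with triolein. It was the single gene of the 18 whose groups did not overlap, where 0.437% of all tested genes had every DHA oil heart below every triolein heart. Ifit2 differed by -1.003 ± 0.228 (SE, n = 5 and 5, limma adjusted p = 0.107). Oasl2, a relative of the RNA-sensing oligoadenylate synthetases, read 4.90, 3.85, 4.66, 3.88 and 3.52 with DHA oil and 5.06, 5.36, 4.81, 5.18 and 5.53 with triolein. Its highest DHA oil heart, replicate 1, lay above the lowest triolein heart, and the difference was -1.03 ± 0.30 (limma adjusted p = 0.282). Rsad2, the antiviral enzyme viperin, differed by -0.62 ± 0.21 (limma adjusted p = 0.433). In Rsad2 DHA oil replicate 1 read 6.43 and the others 5.06 to 5.53, against 5.79 to 6.51 with triolein. Ifit1 differed by -1.11 ± 0.49 and Ifit3 by -0.90 ± 0.31. Ifit1 ranged widely, from 2.49 to 5.50 with DHA oil and from 3.33 to 6.16 with triolein. Gbp3, a guanylate-binding protein of cell-autonomous defence, differed by -0.83 ± 0.24 (limma adjusted p = 0.311).

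Usp18, which removes ISG15 from proteins and damps the interferon receptor, read 4.23, 3.16, 3.90, 3.16 and 3.17 with DHA oil and 3.87, 4.29, 4.14, 4.77 and 4.90 with triolein. The groups overlapped through DHA oil replicates 1 and 3, and the difference was -0.87 ± 0.24 (limma adjusted p = 0.196). Rtp4, an interferon-induced protein of receptor transport, differed by -0.85 ± 0.36, with 5.67 to 7.66 in DHA oil hearts and 6.71 to 7.66 in triolein hearts. Irf9, a DNA-binding factor of the interferon response, differed by -0.34 ± 0.16 and Psmb8, a subunit of the immunoproteasome, by -0.38 ± 0.17. Other members lay closer to 0. Stat2 was at -0.00 ± 0.18, the transcription factor Irf1 at -0.11 ± 0.13, Bst2 at -0.05 ± 0.16 and Ifi27 at -0.01 ± 0.10. Gbp2 lay at -0.36 ± 0.20, and the GTPases Igtp at -0.31 ± 0.32 and Irgm1 at -0.18 ± 0.16. Iigp1, another GTPase of that family, was the exception at 0.18 ± 0.14. The values of Gbp2 and Igtp rested on DHA oil replicate 5. It read 5.67 for Gbp2, where the other DHA oil hearts read 7.0 to 7.31 and the triolein mean was 7.17. For Igtp it read 3.80, where the others read 5.09 to 5.38 and the triolein mean was 5.26. Means of Ifit1, Oasl2 and Usp18 with DHA oil lay under the brightness minimum, so those sizes are not exact, and both Stat2 means did.

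Interferon-inducible genes that were not on the list, chosen after their values were seen, stood near them. Gbp7 differed by -1.08 ± 0.28, the RNA sensor Ifih1 by -0.68 ± 0.17, Trim30a by -0.82 ± 0.21, Xaf1 by -0.70 ± 0.18 and Lgals9 by -0.61 ± 0.16. Their limma adjusted p-values were 0.181 to 0.183. None of the 5 was called. In Gbp7, Xaf1 and Ifih1 a single heart, DHA oil replicate 5, lay far below the other DHA oil hearts. It read 4.15 for Gbp7 (others 6.23 to 6.89), 6.71 for Xaf1 (others 7.92 to 8.20) and 3.39 for Ifih1 (others 4.12 to 4.29). For Ifih1 and Trim30a the size is not exact, since their DHA oil means were below the minimum.

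The mean signal of the 18 genes in each heart shows where the gap lay. It was 6.12, 5.61, 5.90, 5.65 and 5.01 in DHA oil replicates 1 to 5 and 6.03, 6.04, 5.85, 6.34 and 6.45 in triolein replicates 1 to 5. DHA oil replicates 1 and 3 thus reached into the triolein range, and replicate 5 lay furthest below it. Replicate 5 was the lowest of the 5 DHA oil hearts for 15 of the 18 genes, and replicate 1 the highest for 10. Without replicate 5 the list's median was -0.19, with 13 of 18 genes below 0 and 6 lower at an unadjusted p under 0.05. In that fit 186 of all 8237 tested genes were lower at that threshold. Without the arrays of weight under 0.5 the median was -0.21, with 14 of 18 below 0. Then 8 of the 18 were lower at that threshold, beside 174 of all tested genes. Leaving out any single heart other than DHA oil replicate 5 left the median between -0.48 and -0.34. Over the same hearts macrophage markers, all 9 of 9 tested and 0 called, averaged 7.24 to 7.70 with DHA oil and 7.47 to 7.66 with triolein. The 10 endothelial markers averaged 7.78 to 8.10 and 7.80 to 7.97, and none of the 5 lymphocyte or 4 neutrophil markers was bright enough to test. Their part in the result was not tested.

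Set beside the other gavages, the triolein hearts had the highest group mean of the 6 PPARα-null groups on this list. The mean of the list was 6.14 ± 0.25 (SD, n = 5) after triolein, 5.66 ± 0.42 after DHA oil and 5.54 ± 0.16 in the controls. After the triglycerides of linoleic and linolenic acid it was 5.90 ± 0.30 and 5.80 ± 0.49, and after Wy14643, a synthetic PPARα agonist, 5.77 ± 0.28. Those 3 groups overlapped both oils. Wild-type hearts lay between 4.74 and 5.30 in all 6 groups, with 5.00 ± 0.15 (n = 4) after triolein and 4.86 ± 0.08 (n = 5) after DHA oil. In wild-type hearts the median difference of the oils on the list was -0.14, with 15 of 18 below 0 and none at an unadjusted p under 0.05. Bst2, Ifit1, Irf9, Oasl2, Stat2 and Usp18 had wild-type triolein means under the brightness minimum, so their wild-type differences are not exact. Triolein against control in PPARα-null hearts called 95 genes (1.15%), of which 44 rose (0.534%). The total was 4 and 5 without triolein replicate 4 and 5, 8 to 41 without triolein replicate 3 or control replicate 1, 2, 3 or 4, and 201 without control replicate 5. The genes that rose with all hearts included 3 of the 18, namely Usp18 (1.18 ± 0.24, limma adjusted p = 0.0151), Rsad2 (0.90 ± 0.21, adjusted p = 0.0351) and Rtp4 (1.36 ± 0.36, adjusted p = 0.0438). DHA oil against the same controls called 292 genes (3.54%), none of them among the 18, and that total was 43 without DHA oil replicate 5, 90 to 194 without DHA oil replicate 3 or control replicate 1, 2 or 3, and 505 without DHA oil replicate 4. There Usp18 differed by 0.30 ± 0.24, Rsad2 by 0.29 ± 0.21 and Rtp4 by 0.51 ± 0.36. The control mean of Usp18 lay under the brightness minimum, so its differences from control are not exact. Cmpk2 kept its call for triolein against control without any single heart of those groups. Usp18 lost it without triolein replicate 4 or 5 (adjusted p = 0.0664 and 0.0781), Rsad2 in 7 of 10 omissions of a single heart and Rtp4 in 9 of 10, with adjusted p-values up to 0.11 and 0.135. These comparisons share control and oil hearts with the comparison of the oils, so they are not independent of it. The plot of the list in every heart shows the triolein group with the highest mean of the null groups. Single null hearts given the linoleic or linolenic triglyceride reached 6.26 and 6.36, above most triolein hearts.

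**Figure D2:**
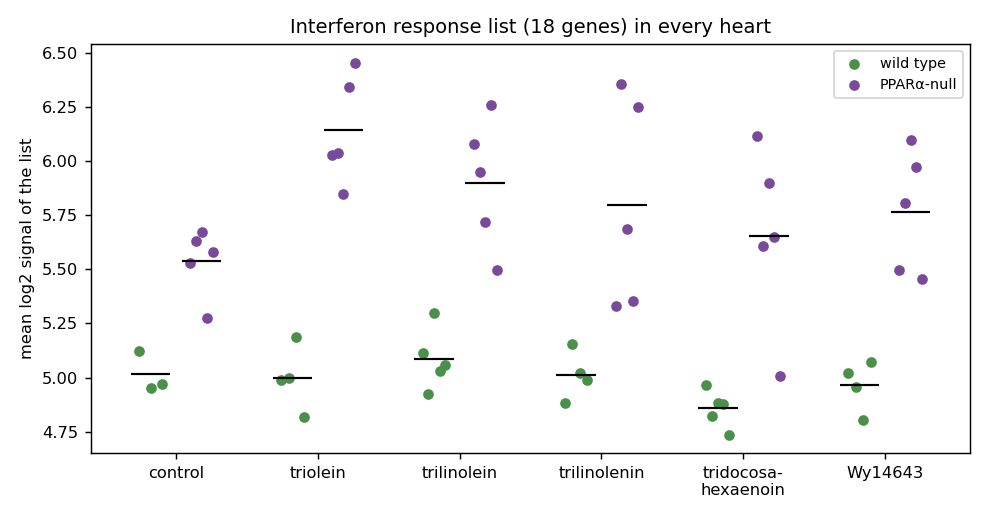
Mean log2 signal of the 18 interferon response genes (y axis) in each of the 55 hearts, by gavage (x axis) and genotype (green wild type, purple PPARα-null). Points are hearts and black lines are group means. PPARα-null triolein hearts lie at 5.85 to 6.45, DHA oil hearts at 5.01 to 6.12 and wild-type hearts at 4.74 to 5.30.

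Beyond the interferon genes, the 10 smallest unadjusted p-values held 7 genes with other functions, none of them called. Atxn1, which encodes the transcriptional corepressor ataxin 1, read 6.84, 7.21, 6.96, 7.34 and 6.27 with DHA oil and 7.58, 7.29, 7.55, 7.50 and 7.51 with triolein. Only DHA oil replicate 4, at 7.34, overlapped the triolein hearts, at triolein replicate 2. Atxn1 differed by -0.56 ± 0.12 (SE, n = 5 and 5, limma adjusted p = 0.0682), and its other bright probe set by -0.45. Cavin2, a coat protein of caveolae, read 10.28, 10.28, 10.45, 10.62 and 10.14 with DHA oil and 10.74, 10.76, 10.53, 10.59 and 10.71 with triolein. It differed by -0.31 ± 0.07 (limma adjusted p = 0.107), and its other bright probe sets by -0.29 and -0.27. Against control hearts Cavin2 fell with DHA oil by 0.41 ± 0.07 (limma adjusted p = 0.000867), while triolein gave -0.10 ± 0.07 (adjusted p = 0.52).

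Among those higher with DHA oil, Aars, the alanyl-tRNA synthetase, read 7.48, 6.99, 7.29, 7.36 and 7.51 against 6.79, 7.04, 6.74, 6.81 and 6.79. DHA oil replicate 2 and triolein replicate 2 were the hearts that overlapped. Aars differed by 0.49 ± 0.11 (limma adjusted p = 0.107), and its other bright probe set by 0.25. Chd6, a chromatin remodelling helicase, read 7.54, 7.88, 7.86, 7.87 and 8.14 with DHA oil and 7.37, 6.55, 7.58, 7.18 and 7.32 with triolein. It differed by 0.65 ± 0.16 (limma adjusted p = 0.181). Against control hearts Chd6 rose with DHA oil by 0.94 ± 0.16 (limma adjusted p = 0.000867), and triolein gave 0.28 ± 0.16 (adjusted p = 0.411). Mtmr4, a phosphatase of endosomal phosphoinositides, differed between the oils by 0.52 ± 0.13 and did not overlap, at 6.04 to 6.62 and 5.68 to 5.95. Against control DHA oil gave 0.48 ± 0.13 (limma adjusted p = 0.0299, lost in 5 of 10 omissions of a single heart, up to 0.12) and triolein -0.04 ± 0.13. Zfp746, a zinc finger repressor, differed by 0.49 ± 0.11 and Rasa3, which switches off small Ras-like GTPases, by 0.35 ± 0.09. The last of the 10, Mndal, belongs to a family of interferon-inducible DNA-binding proteins and differed by -0.45 ± 0.11 (limma adjusted p = 0.137). Its probe set type can also bind close relatives, so Mndal is uncertain among them. The plot of levels shows 6 of these genes heart by heart.

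**Figure D3:**
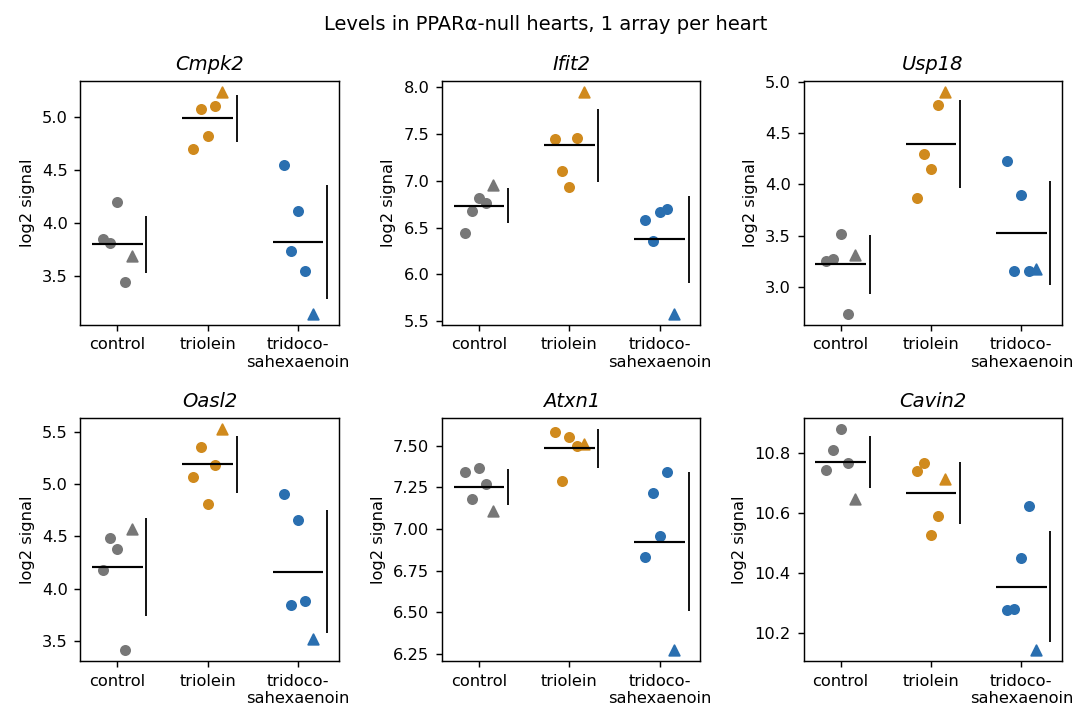
Log2 signal (y axes) of 6 genes in each PPARα-null heart after control gavage, triolein or DHA oil (tridocosahexaenoin). Points are hearts, triangles mark replicate 5 of each group, horizontal lines are means and vertical bars are 1 SD (n = 5). Cmpk2, Ifit2, Usp18 and Oasl2 are highest after triolein, with DHA oil hearts near the controls, while Cavin2 is lowest after DHA oil.

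No target gene of the PPAR receptors was called between the oils in PPARα-null hearts. Of 31 tested PPAR targets 2 were higher and 1 lower at an unadjusted p under 0.05 (limma), beside 3.51% and 3.33% of all genes, and the median was 0.0024. For 25 of the 31 the 95% interval lay within 1.5-fold, a smaller share than the 92.6% of all genes. It did so for 20 of 21 genes of mitochondrial fatty acid oxidation and for all 25 genes of oxidative phosphorylation. Angptl4, a secreted inhibitor of lipoprotein lipase that fatty acids induce, read 8.63, 7.38, 8.21, 7.81 and 9.64 with DHA oil and 7.85, 8.02, 8.56, 8.36 and 8.43 with triolein. It differed by 0.09 ± 0.38, with a 95% interval of -0.68 to 0.87 (limma adjusted p = 0.98), and DHA oil hearts lay on both sides of the triolein range. Pdk4, the kinase that shuts pyruvate out of oxidation, differed by 0.13 ± 0.20 (interval -0.28 to 0.55). Against control Pdk4 rose with DHA oil by 0.77 ± 0.20 (limma adjusted p = 0.0248), and triolein gave 0.64 ± 0.20 (adjusted p = 0.111). That rise lost its call without DHA oil replicate 5 (0.59, adjusted p = 0.177) or control replicate 2 or 4 (adjusted p = 0.0513 and 0.0745). Ucp3, a mitochondrial uncoupling protein, differed by -0.23 ± 0.27, with both means under the brightness minimum. Cpt1a, the gate of mitochondrial fatty acid entry in many tissues, differed by -0.23 ± 0.16 and the thioesterase gene Acot1 by -0.23 ± 0.30. Narrow intervals surrounded Cd36, the fatty acid translocase (0.01 ± 0.05), Fabp3, the heart fatty acid-binding protein (-0.01 ± 0.03), and Plin2, a lipid droplet coat (0.01 ± 0.12). Ehhadh, the peroxisomal bifunctional enzyme (0.32 ± 0.16), and Plin4, another droplet coat (0.33 ± 0.13), were the targets furthest above 0. The size for Ehhadh is not exact, as its triolein mean lay under the brightness minimum. Plin4 rose with DHA oil against control, by 0.68 ± 0.13 (limma adjusted p = 0.00268).

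The same oils differed in wild-type hearts at genes of this kind, which makes the genotype difference the test of interest. With DHA oil, wild-type hearts (n = 5) were lower than triolein hearts (n = 4) by 2.02 ± 0.41 log2 units for Angptl4 and by 1.25 ± 0.28 for Ucp3, and Hsd17b11, a lipid droplet dehydrogenase, was lower by 0.65 ± 0.11. All 3 were called (limma adjusted p = 0.0104, 0.023 and 0.00139). Angptl4 lost its call without wild-type triolein replicate 3 (-1.64, adjusted p = 0.0764), Ucp3 in 4 of 9 omissions of a single heart (adjusted p up to 0.138) and Hsd17b11 in none. Of the 31 PPAR targets 3 fell in wild type, beside 0.231% of all tested genes. Their median was -0.07 and 26 of 31 lay below 0, beside 51.9% of all genes. In PPARα-null hearts Hsd17b11 differed by 0.04 ± 0.10 (interval -0.16 to 0.24). Tested directly, the genotype difference called 0 of 8237 genes (0%), while 450 had an unadjusted p under 0.05 (limma). It was 2.11 ± 0.56 for Angptl4 (limma adjusted p = 0.291), 1.02 ± 0.39 for Ucp3 (adjusted p = 0.772), 0.69 ± 0.14 for Hsd17b11 (adjusted p = 0.107) and 0.96 ± 0.23 for Ehhadh (adjusted p = 0.215). None of these differences passed the threshold over all genes. Both null means of Ucp3 and the null triolein mean of Ehhadh lay under the brightness minimum, so their genotype differences are not exact. Hsd17b11 and Pfkfb2, a glycolytic regulator (-0.96 ± 0.20), had the smallest adjusted p, 0.107. In null hearts the oils differed by -0.27 at the Pfkfb2 probe set used, and by 0.10 and -0.06 at its other bright probe sets. The wild-type count was 114 without wild-type DHA oil replicate 4 and 10 without wild-type triolein replicate 2. It was 68 without DHA oil replicate 2 and 18 to 22 without DHA oil replicate 1, 3 or 5 or triolein replicate 3. Without wild-type triolein replicate 1 the genotype difference called 3 genes, and without null DHA oil replicate 2 or wild-type DHA oil replicate 1 it called 1.

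**Figure D4:**
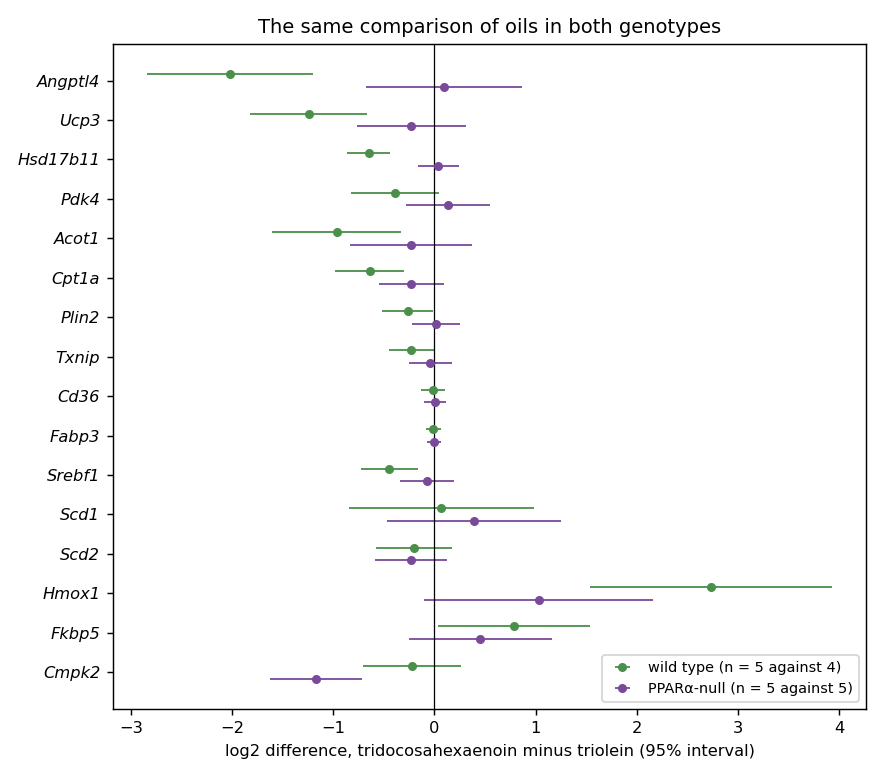
Log2 difference, DHA oil minus triolein (x axis), with its 95% interval for 16 genes in wild-type hearts (green, n = 5 and 4) and PPARα-null hearts (purple, n = 5 and 5). Angptl4, Ucp3 and Hsd17b11 lie below 0 in wild type, at -2.02, -1.25 and -0.65, with null values of 0.09, -0.23 and 0.04, while Cmpk2 lies below 0 in the null hearts. Both null means of Ucp3 were under the brightness minimum.

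Heme oxygenase Hmox1, which responds to oxidised polyunsaturated lipid, had a wide spread. It read 5.53, 8.55, 7.09, 4.17 and 6.77 with DHA oil and 5.85, 5.40, 4.86, 4.63 and 6.21 with triolein. DHA oil replicates 2, 3 and 5 were above all triolein hearts and replicate 4 was below all of them. The difference was 1.03 ± 0.56 (interval -0.10 to 2.16, limma adjusted p = 0.769). In wild-type hearts Hmox1 was higher with DHA oil than with triolein by 2.73 ± 0.60 (limma adjusted p = 0.0148), a call that 4 of 9 omissions of a single heart ended (adjusted p up to 0.116), and the genotype difference was -1.70 ± 0.82 (adjusted p = 0.891). Of 28 tested NRF2 targets 0 were called by limma, 4 were higher and 2 lower at an unadjusted p under 0.05, beside 3.51% and 3.33% of all genes, and the median was 0.03. Gclc, of glutathione synthesis, differed by 0.29 ± 0.14, the sulfiredoxin gene Srxn1 by 0.36 ± 0.15, the glutathione transferase gene Mgst1 by 0.31 ± 0.10 and Ugdh by 0.30 ± 0.15. The epoxide hydrolase gene Ephx1 (-0.30 ± 0.13) and Osgin1 (-0.23 ± 0.11) lay the other way.

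Genes of lipid synthesis, which DHA is known to repress through SREBP-1c, held no called member either. Srebf1 differed by -0.07 ± 0.13 (interval -0.34 to 0.20), Scd2, a desaturase, by -0.23 ± 0.18 and Scd1, another desaturase, by 0.39 ± 0.43, with DHA oil hearts from 5.21 to 7.95. Among 18 tested genes of fatty acid synthesis and desaturation the median was -0.03 and none was called, and among 12 of cholesterol synthesis it was -0.06. Insig1, which holds back sterol-regulated processing, differed by -0.39 ± 0.13 in null hearts (limma adjusted p = 0.427) and by 0.48 ± 0.14 in wild-type hearts (adjusted p = 0.0947). Its genotype difference was -0.87 ± 0.19 (limma adjusted p = 0.13). In null hearts Insig1 rose with triolein against control by 0.52 ± 0.13 (limma adjusted p = 0.0374), and 7 of 10 omissions of a single heart ended that call (adjusted p up to 0.161).

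In the remaining lists no member was called. Over 37 lists other than the interferon list, medians ran from -0.06 to 0.13, as the plot of all lists shows. Over all genes 4189 of 8237 lay above 0. The list medians were highest for glucocorticoid responsive genes (0.13, 17 of 23 above 0), the circadian clock (0.13, 12 of 16) and cytokine and STAT3 signalling (0.12, 12 of 16). In the last, 4 of 16 were higher at an unadjusted p under 0.05, beside 3.51% of all genes. They were the feedback inhibitors Socs3 (0.71 ± 0.28), Cish (0.53 ± 0.18) and Socs2 (0.33 ± 0.09), and the transcription factor Junb (0.54 ± 0.25). Socs3 read 6.47, 5.89, 6.29, 5.59 and 6.17 with DHA oil and 5.16, 5.57, 6.01, 5.03 and 5.08 with triolein, where triolein replicate 3 overlapped. Its other bright probe set differed by 0.17. Against control Socs3 rose with DHA oil by 1.06 ± 0.28 (limma adjusted p = 0.0237), and 4 of 10 omissions of a single heart ended that call, with an adjusted p of 0.105 without DHA oil replicate 5. Among glucocorticoid responsive genes the chaperone gene Fkbp5 and the transcription factor gene Zbtb16 rose with both oils against control. With DHA oil they rose by 1.94 ± 0.35 and 1.99 ± 0.32 (limma adjusted p = 0.00163 and 0.000537), with no call lost to a single heart. With triolein they rose by 1.49 ± 0.35 and 1.52 ± 0.32 (adjusted p = 0.0351 and 0.0151), and 6 and 5 of 10 omissions ended those calls (adjusted p up to 0.133 and 0.0783). Between the oils Fkbp5 differed by 0.45 ± 0.35 and Zbtb16 by 0.47 ± 0.32. Txnip (-0.04 ± 0.10), the clock gene Per1 (0.13 ± 0.22), the orphan receptor Nr4a1 (-0.24 ± 0.40) and the natriuretic peptide gene Nppb (-0.53 ± 0.31) were not called either.

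**Figure D5:**
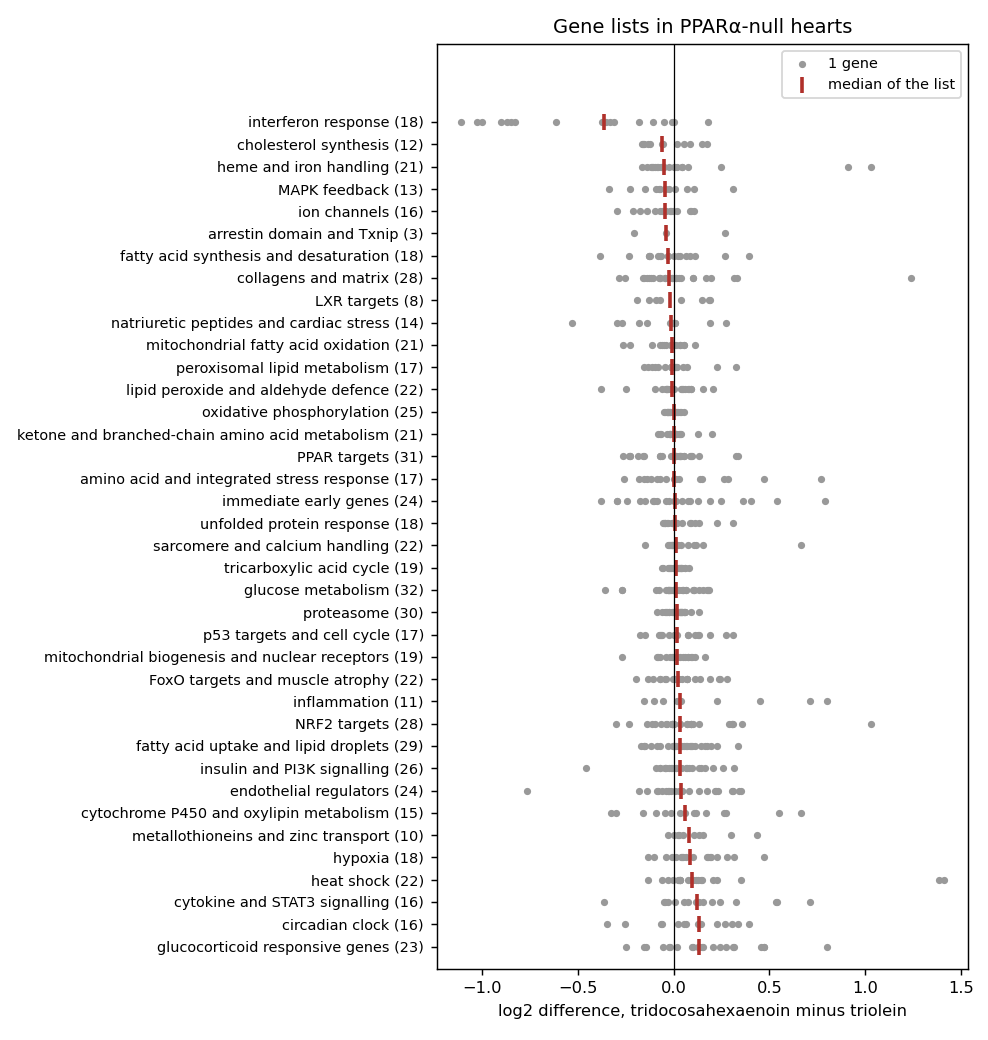
Log2 difference, DHA oil minus triolein in PPARα-null hearts (x axis), for each tested gene (grey points) of 38 lists, with the number of tested genes in brackets. Red bars are list medians. The interferon response list has the lowest median, -0.37, and the other 37 medians lie between -0.06 and 0.13.

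Single members stood out from lists that otherwise lay near 0. Chac1, a glutathione-degrading enzyme of the integrated stress response, differed by 0.77 ± 0.23 (limma adjusted p = 0.36), and against control it rose with DHA oil by 1.18 ± 0.23 (adjusted p = 0.00269), a size that is not exact because the control mean lay under the brightness minimum. Cyp1b1, a cytochrome P450 of fatty acids and steroids, read 6.18, 5.21, 5.69, 5.02 and 6.95 with DHA oil and 4.82 to 5.38 with triolein. It differed by 0.67 ± 0.24 (limma adjusted p = 0.467). Against control it rose with DHA oil by 1.47 ± 0.24 (limma adjusted p = 0.000537), and triolein gave 0.80 ± 0.24 (adjusted p = 0.0772). Aplnr, the apelin receptor of the endothelium, differed by -0.76 ± 0.51 between the oils. It fell with DHA oil against control by 1.94 ± 0.51 (limma adjusted p = 0.0247), and triolein gave -1.17 ± 0.51 (adjusted p = 0.265). Aplnr read 2.85 in DHA oil replicate 5 and 5.73 to 6.56 in the other 4, and without replicate 5 the fall against control was 1.29 with an adjusted p of 0.205. Leaving out control replicate 1, 2 or 3 ended that call too (adjusted p = 0.0597, 0.0534 and 0.073). Tbc1d4, which holds glucose transporters inside the cell, differed by -0.46 ± 0.12 and the PI3-kinase subunit gene Pik3r1 by 0.31 ± 0.14. Lpin1, of glycerolipid synthesis, differed by 0.23 ± 0.08 and Bag3, a partner of heat shock proteins, by 0.22 ± 0.07.

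The largest differences in size came from single hearts. Hspa1a, an inducible heat shock protein gene, differed by 1.41 ± 0.62, but read 8.33 in DHA oil replicate 1 and 2.44 to 2.76 in the other 4, against 2.13 to 2.53 with triolein. Its near-identical copy Hspa1b read 11.08 in the same heart and 4.07 to 5.21 in the others, so the signals of both copies cannot be told apart. Lox, a crosslinking enzyme of collagen, differed by 1.24 ± 0.45 and read 7.51 in DHA oil replicate 5 and 2.72 to 4.19 in the other 4, against 2.89 to 3.32 with triolein. DHA oil replicate 5 is also the heart with the lowest mean of the interferon list. The triolein means of Hspa1a and Lox, and the DHA oil mean of Hspa1a, lay under the brightness minimum.

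None of the cell type markers was called. The 6 cardiomyocyte markers had differences of -0.02 to 0.04 and averaged 13.88 to 13.93 in DHA oil hearts and 13.87 to 13.93 in triolein hearts. Of 9 fibroblast markers 8 were below 0, beside 49.1% of all tested genes, with a median of -0.06. The 4 tested markers of atrial muscle had a median of 0.44, but averaged 9.23 to 12.04 with DHA oil and 8.44 to 12.07 with triolein. These atrial means varied more within each oil group than between the groups. The 5 smooth muscle markers had a median of 0.25. The 3 liver markers were not bright enough to test.

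How many genes were called turned on single hearts of both groups. Without DHA oil replicate 4 there were 7 called genes (limma), namely Atxn1 (-0.66), Cavin2 (-0.38), Nr3c2, the mineralocorticoid receptor gene (-0.80), Slc4a4, a sodium bicarbonate transporter (-0.58), Cmpk2 (-1.10), Sec23ip (0.37) and Larp4 (0.37). Without DHA oil replicate 2 there were 2, Atxn1 and Aars, and without replicate 1 or 3 Cmpk2 alone. Without DHA oil replicate 5, or without triolein replicate 2, 3, 4 or 5, there were 0. With all hearts Nr3c2 differed by -0.64 ± 0.17, Slc4a4 by -0.45 ± 0.13, Sec23ip by 0.30 ± 0.08 and Larp4 by 0.29 ± 0.08 (limma adjusted p = 0.181 to 0.282).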

How the data were processed

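Expression was measured in 55 mouse hearts, 1 Affymetrix array per heart. The deposited values are log2 signals that the authors made with GCRMA 2.2.0, per the submitters' processing notes, which corrects background, normalises by quantiles and joins probes into probe sets. Values entered the tests as deposited, and the scanner software is not given in the sources used here. Of 45101 probe sets, 34958 had 1 gene symbol in the platform annotation, 932 had several and 9211 had none, and those without exactly 1 were left out. This left 18193 genes, of which 9010 had several probe sets, and the brightest by its mean across the 55 arrays stood for the gene. A gene was tested if at least 3 arrays exceeded a linear signal of 20.

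Limma 3.58.1 in R 4.3.3 fitted 1 mean for each of 12 groups over all arrays (43 residual and 3.25 prior degrees of freedom), with contrasts of means, a constant prior and Benjamini-Hochberg adjustment over 8237 genes. The threshold for a call was an adjusted p of 0.05. The fit was tested on simulated data. With 5 hearts a group, array number limits the precision. The p-values, SEs and intervals use 1 spread per gene, pooled over the hearts of all 12 groups. PPARα-null DHA oil hearts varied most, with a median SD of 0.171 log2 units, so the pooled spread can understate theirs. With only the groups compared, the oils gave 0 called genes in PPARα-null hearts. Alternatives were other filters on brightness, the mean of all probe sets, a further quantile normalization, array weights, a trended robust prior, fits of fewer groups, a replicate block and the omission of each heart in turn. Leaving out the 3 arrays with a weight under 0.5 was added after the weights were seen.

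The comparison, the 38 gene lists, the marker sets and the naming rule were chosen with earlier results of these data known. The rule named called genes, 20 index genes and, since fewer than 20 genes were called, the 10 genes of smallest unadjusted p. Of the index genes 17 were tested. Ucp2 and Cpt1b had no probe set of their own here, and 1 other index gene is not reported here. List members and other genes named beyond the rule were chosen after their values were seen.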

Additional observations from a re-analysis of the deposited data

Results flagged for a closer look

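Among the 79 genes named, each oil group of PPARα-null hearts was searched for a heart that stood apart from the other 4 by Dixon's criterion, in 158 groups of values. Chance alone flags about 5% of groups of unselected, independent values. Many of these genes were chosen after their values were seen, so that share is not the expectation here. There were 13 hits, 8 of them DHA oil replicate 5. This heart was low for Mndal (8.17, others 8.85 to 9.12), Gbp2 (5.67, others 7.0 to 7.31), Igtp (3.80, others 5.09 to 5.38), Gbp7 (4.15, others 6.23 to 6.89), Xaf1 (6.71, others 7.92 to 8.20), Ifih1 (3.39, others 4.12 to 4.29) and the apelin receptor Aplnr (2.85, others 5.73 to 6.56). The first 6 of these genes are interferon-inducible. It was high for Hsd17b11 (8.18, others 7.92 to 8.00).

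DHA oil replicate 1 was high for the heat shock genes Hspa1a (8.33, others 2.44 to 2.76) and Hspa1b (11.08, others 4.07 to 5.21). Triolein replicate 2 was low for Atxn1 (7.29, others 7.50 to 7.58) and Pik3r1 (9.38, others 9.72 to 9.79) and high for Aars (7.04, others 6.74 to 6.81).

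Insig1 lay lower with DHA oil than with triolein in PPARα-null hearts and higher in wild-type hearts, with the DHA oil hearts of each genotype on opposite sides of their triolein mean. Its genotype difference was -0.87 (limma adjusted p = 0.13).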

How the results depend on the processing

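For DHA oil against triolein in PPARα-null hearts, 1 gene was called. There were 0 calls when dim genes were kept, when the linear minimum was 100, and with the mean of all probe sets, array weights, a fit of only the groups compared, a fit of the 6 PPARα-null groups, and without the 3 arrays of weight under 0.5. There were 2 with a further quantile normalization and with a trended and robust prior, and 0 to 7 with single hearts left out. With the replicate number as a block 1 gene was called. Cmpk2 was too dim to be tested with the linear minimum of 100 or with the mean of all probe sets. The 0 calls in those settings are therefore no test of the Cmpk2 call. Same-numbered hearts deviated with correlations of -0.0098, 0.0637, -0.0122, 0.0046 and 0.2175, so the numbers were not taken to pair the hearts.

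For the wild-type oils (44 calls) there were 25 with no filter, 3 with only the groups compared, 85 without the low-weight arrays, 39 with the replicate block and 10 to 114 with single hearts left out. The genotype difference (0 calls) gave 1 with only the groups compared, 0 with the replicate block and 0 to 3 with single hearts left out. DHA oil against control (292 calls) gave 12 with only the groups compared, 167 with the 6 PPARα-null groups, 93 without the low-weight arrays, 318 with the replicate block and 43 (without DHA oil replicate 5) to 505 (without DHA oil replicate 4). Triolein against control (95 calls) gave 26 with no filter, 391 with array weights, 31 with only the groups compared, 49 with the 6 PPARα-null groups, 116 with the replicate block and 4 (without triolein replicate 4) to 201 (without control replicate 5). The cause of these shifts was not tested.

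Some uncalled differences of the oils changed sign. Array weights gave Angptl4 -0.0045, Plin2 -0.0644, Cd36 -0.0073 and Ifi27 0.0595, and Oasl2 against control with DHA oil 0.0061. Without the low-weight arrays the values were -0.4398 for Angptl4, -0.1559 for Pdk4, -0.2269 for Plin2, -0.0445 for Cd36, -0.319 for Scd1, 0.1293 for Ifi27, 0.026 for Igtp, 0.0248 for Irf1, 0.0507 for Ephx1 and -0.0064 for Hsd17b11. The mean of all probe sets gave Cd36 -0.0129, Fabp3 0.0373 and Scd2 0.0231, and quantile normalization gave Fabp3 0.0014. With single hearts left out the ranges were -0.2328 to 0.331 for Angptl4, -0.0469 to 0.235 for Pdk4, -0.0871 to 0.0906 for Plin2, -0.5195 to 0.0436 for Acot1, -0.0457 to 0.0319 for Cd36, -0.0233 to 0.0062 for Fabp3, -0.0301 to 0.6555 for Scd1, -0.1262 to 0.0008 for Srebf1, -0.0765 to 0.0263 for Txnip, -0.1013 to 0.4001 for Per1 and -0.666 to 0.072 for Nr4a1. They were -0.2123 to 0.0386 for Bst2, -0.0591 to 0.0682 for Ifi27, -0.1722 to 0.0497 for Irf1, -0.0967 to 0.0805 for Stat2 and -0.0122 to 0.0846 for Hsd17b11. For DHA oil against control they were -0.1627 to 0.188 for Cmpk2 and -0.2421 to 0.1162 for Oasl2. The cause of these changes was not tested. Signal near background limits the size of dim genes.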
